A study of Mus musculus with 8 samples.

Results

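Genes that mark T cells, regulatory T cells and natural killer (NK) cells were followed in RNA from B cells sorted out of mouse spleen. They were 37 genes chosen by symbol: 23 of T cells, 2 of regulatory T cells and 12 of NK cells. A gene was measured where the array's annotation pairs a probe set with its symbol alone, and 36 were, each by 1 probe set, out of 19937 genes measured in the same way. The T-cell factor gene Tcf7 was not analysed here, which left 22 T genes. The samples were 4 arrays labelled Sca1-HGAL and 4 labelled Control, both from adult mice of the mixed CBAxC57BL/6J strain. Sca1-HGAL mice express HGAL (also called GCET2), a germinal centre adaptor protein, from the promoter of Sca1 (Ly-6E.1), which is active in blood stem cells and lymphocytes and is not restricted to B cells. Control mice were wild-type littermates without the introduced gene. One label calls the first group a knock-in and the design text calls it transgenic, and no founder line, sex, litter or batch is given. Every sample was sorted for the B-cell surface proteins CD22 and B220. The labels do not say that each array is a separate mouse, so the tests measure the spread between these arrays.

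T cells recognise antigen through a receptor that signals through the CD3 chains, the kinase ZAP70 and the adaptor LAT, with help from the coreceptors CD4 or CD8. Regulatory T cells depend on the factor FOXP3 and carry the interleukin 2 receptor chain CD25. NK cells and cytotoxic T cells kill with perforin and granzymes, and they share several receptors, granule proteins and the chemokine CCL5, so many of the NK genes are not exclusive to NK cells. A sort on CD22 and B220 is meant to leave these cells out, but a bulk array reads RNA from every cell in the tube. In such RNA, more cells of a type and more RNA per cell cannot be told apart.

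All levels are log2 of the deposited intensity, and a difference is the Sca1-HGAL mean minus the Control mean on that scale. Median intensities of the arrays lay between 148.7 and 157.2. The B-cell label held: 12 of 13 listed B-cell genes were measured, and their mean level was 12.84 to 12.90 on Control and 12.81 to 12.85 on Sca1-HGAL arrays. Control 2 and Control 4 had Xist at 12.17 and 12.18, against 5.28 to 5.65 on the other 6 arrays. The Y-linked gene Eif2s3y read 4.22 and 3.96 on them, against 10.21 to 10.61 on the others. By these values Control 2 and 4 hold female RNA and all other arrays male RNA, so sex is partly confounded with group. Sca1-HGAL 3 stood apart as the lowest array for most T and NK genes, and Sca1-HGAL 1 as the highest for many T genes. The main counts and correlations are also given without these arrays.

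Upstream sequence of some members is shown as a description. Whether the motifs go with the way these genes moved together over the arrays was not tested. RefSeq promoters (build GRCm38.p6) matched 23 of the 37 genes, and the 250 bases before each start were searched on both strands for 5 short motifs. For RUNX factors the letters were TGTGGT. For ETS factors the letters were AGGAAG. The motif for GATA factors was spelled AGATAA. TCF and LEF factors were searched as CTTTGA, and T-box factors as GGTGTGA. A stretch matching 2 overlapping motifs counted for each. The RUNX letters were in 14.0% of 32851 promoters and in 8 of the 23 members, of which 7 were among the 8 NK genes matched (Klrb1c, Klrk1, Ncr1, Nkg7, Prf1, Gzma and Gzmb, not Eomes) and 1 among the 13 T genes (Trat1). The ETS letters were in 29.5% of all promoters and in 10 members, the TCF and LEF letters in 13.8% and in 4 members, the GATA letters in 9.99% and in 1 member, and the T-box letters in 3.33% and in 2 members. The 4 members with TCF and LEF letters were the T genes Zap70, Cd3d, Bcl11b and Trat1. These are letter matches and not binding sites. The first 4 sequences are NK genes with a RUNX match, and the last 2 are genes of CD3 chains without one. Capitals mark the matches, whichever strand they lie on, and each run is written 5′ to 3′ on the strand of its gene.
Gzma (granzyme A, minus strand, a 30-base stretch around its match because the window lies inside the span of Cdc20b), chr13:113101014-113101043: gagaagaacaaaACCACAtcctttgcactc
Gzmb (granzyme B, minus strand), chr14:56262335-56262584: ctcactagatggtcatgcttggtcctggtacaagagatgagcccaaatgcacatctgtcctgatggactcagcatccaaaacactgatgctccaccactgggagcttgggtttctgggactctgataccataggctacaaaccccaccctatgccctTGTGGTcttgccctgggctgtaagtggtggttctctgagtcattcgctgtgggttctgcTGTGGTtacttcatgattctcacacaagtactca
Ncr1 (the activating receptor NKp46, plus strand), chr7:4337465-4337714: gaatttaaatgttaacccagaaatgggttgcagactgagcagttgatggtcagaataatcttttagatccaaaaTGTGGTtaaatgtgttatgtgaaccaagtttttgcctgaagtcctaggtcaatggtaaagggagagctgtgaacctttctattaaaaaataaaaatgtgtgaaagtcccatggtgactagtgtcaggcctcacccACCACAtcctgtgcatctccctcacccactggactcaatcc
Nkg7 (a cytotoxic granule protein, plus strand), chr7:43436888-43437137: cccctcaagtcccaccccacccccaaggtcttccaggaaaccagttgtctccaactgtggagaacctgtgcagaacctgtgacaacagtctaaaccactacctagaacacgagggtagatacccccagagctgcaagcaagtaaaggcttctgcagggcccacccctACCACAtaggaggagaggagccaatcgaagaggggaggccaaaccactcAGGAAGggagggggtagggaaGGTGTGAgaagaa
Cd3g (CD3 gamma, minus strand), chr9:44980432-44980681: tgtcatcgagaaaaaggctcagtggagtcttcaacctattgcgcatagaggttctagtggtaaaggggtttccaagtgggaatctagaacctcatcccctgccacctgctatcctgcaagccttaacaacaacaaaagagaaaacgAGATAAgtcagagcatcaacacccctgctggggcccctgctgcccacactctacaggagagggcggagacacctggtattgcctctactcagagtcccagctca
Cd3e (CD3 epsilon, minus strand), chr9:45009664-45009861: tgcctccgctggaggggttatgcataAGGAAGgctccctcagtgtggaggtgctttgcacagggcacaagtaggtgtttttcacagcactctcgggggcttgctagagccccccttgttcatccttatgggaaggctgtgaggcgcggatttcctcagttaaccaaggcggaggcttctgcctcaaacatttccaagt

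The CD3 gamma promoter has the only GATA match among the members, and Nkg7 has an ETS and a T-box match beside its RUNX match. For Cd3e, 198 bases are shown because the remaining 52 lie within the annotated gene. Cd3g and Cd3d start head to head on chromosome 9, with 1337 bases between them. Klrb1c, Klrd1 and Klrk1 lie on chromosome 6, in the NK receptor cluster.

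A difference between the groups was not established for any T, regulatory T or NK gene, which does not show that none changed. None of the 36 passed an adjusted p of 0.05 in limma (Benjamini-Hochberg over all 21640 probe sets tested, of which 1, or 0.00462%, passed). At an unadjusted p under 0.05 there were 3 members, or 8.33%, against 9.59% of all probe sets, and all 3 were lower in Sca1-HGAL: Gzma, Skap1 and Klrk1. Among all probe sets 4.06% were lower and 5.53% higher at that level. Control and Sca1-HGAL arrays overlapped for every member, while 5.45% of all probe sets had groups that did not. The difference was positive for 17 members and negative for 19, with a median of -0.02, against a median of 0.01 and 56.1% positive over all probe sets. The median was 0.04 for T, -0.10 for regulatory T and -0.09 for NK genes.

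**Figure D1:**
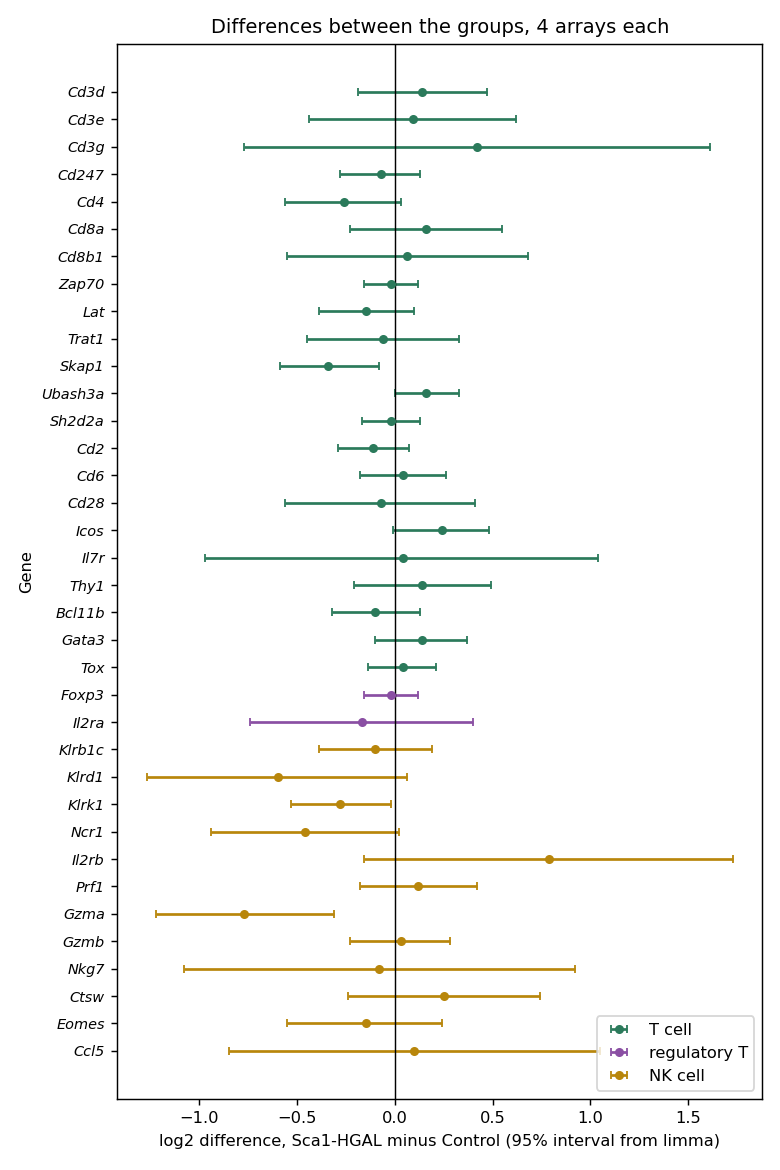
Difference between the groups for each of the 36 genes (x axis, log2 level in Sca1-HGAL minus Control, 4 arrays each; y axis, gene), with points for the difference and bars for the 95% interval from limma. Most intervals cross 0; Gzma, at -0.77 with an interval of -1.22 to -0.31, is the lowest, and Il2rb, at 0.79 with -0.16 to 1.73, the highest.

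Many of these genes spread widely from array to array. The highest array exceeded the lowest by more than 1 on the log2 scale for 13 of 36 members (36.1%), against 3.7% of all probe sets, and by more than 2 for 6 members (Cd3g, Nkg7, Il7r, Ccl5, Il2rb and Klrd1), against 0.633%. Without Sca1-HGAL 3, 9 members exceeded 1 (3.37% of all probe sets) and 2 exceeded 2 (0.587% of all probe sets). Without Sca1-HGAL 1, 9 members exceeded 1 (2.56% of all probe sets) and 4 exceeded 2 (0.333% of all probe sets). Without both arrays, 5 exceeded 1 (2.26% of all probe sets): Cd3g, Klrd1, Il2rb, Gzma and Ccl5. Within the Control arrays, 3 did (0.994% of all probe sets): Klrd1, Il2rb and Gzma. The median spread over all 8 arrays was 0.75 over the members and 0.35 over all probe sets. None of 17 genes of other tissues (liver, heart, eye and others) exceeded 1, with spreads of 0.19 to 0.54. Of the 36 members, 26 exceeded that upper value, while 81.3% of all probe sets had a spread below it. A level alone does not show expression: 12 of these 17 genes had a mean level above 6, as had 32 of the 36 members. Sca1-HGAL 3 was the lowest array for 23 members, 15 of 22 T and 8 of 12 NK genes, and for 10.7% of all probe sets. Sca1-HGAL 1 was the highest for 16 members: 12 of 22 T, 1 of 2 regulatory T and 3 of 12 NK genes. Control 2 and Control 3 were also each the highest for 3 NK genes. Sca1-HGAL 1 was the highest for 14.7% of all probe sets, although it was the lowest array for 19.7% of all probe sets and for 0 members.

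**Figure D2:**
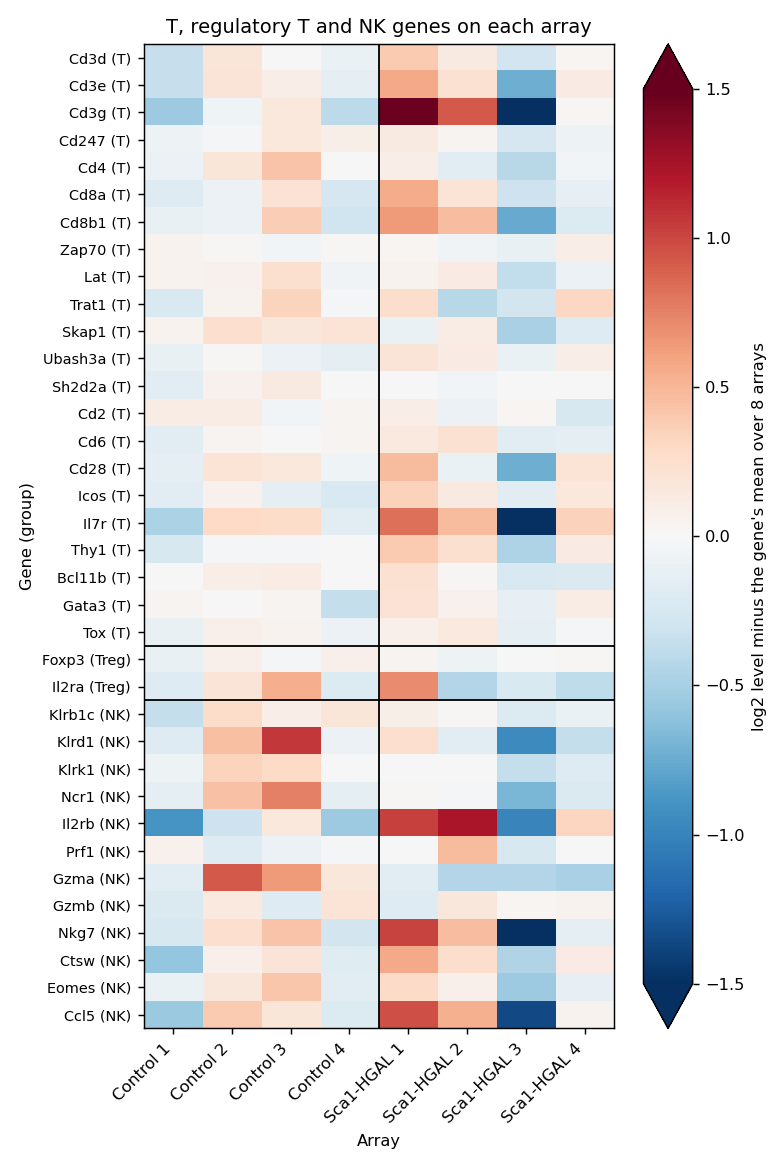
Heat map of the 36 genes (rows, T, regulatory T and NK genes apart) on the 8 arrays (columns), coloured by the log2 level minus the gene's mean over all arrays; colours stop at 1.5 either way. Sca1-HGAL 1 is mostly red and Sca1-HGAL 3 mostly blue, while rows such as Zap70, Sh2d2a, Cd2 and Foxp3 stay pale.

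The CD3 chains carry the signal of the T-cell receptor. Cd3e, encoding CD3 epsilon, read 8.42, 8.96, 8.86 and 8.63 on Control 1 to 4 and 9.33, 8.99, 8.03 and 8.89 on Sca1-HGAL 1 to 4. Both the highest and the lowest array were Sca1-HGAL ones, with the Control arrays between them. The difference was 0.09 (SE 0.24, 95% interval -0.44 to 0.62, limma adjusted p = 0.943). Cd3g, encoding CD3 gamma, read 7.87, 8.35, 8.57 and 8.02 on Control and 9.89, 9.34, 6.85 and 8.43 on Sca1-HGAL arrays. Sca1-HGAL 1 and 2 lay above all Control arrays and Sca1-HGAL 3 below them. Its spread of 3.05 was the widest of the members, and the difference of 0.42 (SE 0.53, limma adjusted p = 0.850) was smaller than its error. Cd3d, encoding CD3 delta, read 5.96, 6.49, 6.30 and 6.20 on Control and 6.70, 6.44, 6.02 and 6.33 on Sca1-HGAL arrays, in a similar order over a spread of 0.74. Cd247, the zeta chain, was flatter, from 6.99 to 7.40 over all arrays, and was again lowest on Sca1-HGAL 3.

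The coreceptors mark the helper and cytotoxic branches of T cells. Cd4 read 7.44, 7.71, 7.96 and 7.54 on Control and 7.63, 7.36, 7.12 and 7.49 on Sca1-HGAL arrays. Control 3 was the highest array and Sca1-HGAL 3 the lowest, and the groups overlapped (difference -0.26, SE 0.13, limma adjusted p = 0.567). Cd8a, the CD8 alpha chain, read 7.29, 7.39, 7.69 and 7.23 on Control and 8.03, 7.68, 7.17 and 7.35 on Sca1-HGAL arrays, a difference of 0.16 (SE 0.17, limma adjusted p = 0.821). Cd8b1, the beta chain, read 8.02, 8.04, 8.50 and 7.83 on Control and 8.77, 8.59, 7.37 and 7.92 on Sca1-HGAL arrays. Both CD8 chains were highest on Sca1-HGAL 1 and lowest on Sca1-HGAL 3.

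Behind the receptor are a kinase and adaptors, whose spreads over the arrays ran from 0.22 for Zap70 to 0.75 for Trat1. Zap70, the kinase that binds the CD3 chains, stayed between 6.64 and 6.85 (difference -0.02, SE 0.06, 95% interval -0.16 to 0.12, limma adjusted p = 0.957). Sh2d2a, an adaptor of T-cell signalling, spread by 0.28 over all arrays, and on the Sca1-HGAL arrays stayed between 8.83 and 8.88. Lat, a membrane adaptor, ranged from 7.15 on Sca1-HGAL 3 to 7.76 on Control 3. Trat1, a receptor-associated adaptor, ranged from 4.62 to 5.37 and was highest on Control 3. Skap1, an adaptor that links the receptor to integrins, read 7.39, 7.59, 7.51 and 7.55 on Control and 7.24, 7.45, 6.85 and 7.15 on Sca1-HGAL arrays. Only Sca1-HGAL 2 reached into the Control range. Its difference of -0.34 (SE 0.11, 95% interval -0.59 to -0.08) had an unadjusted p of 0.014 and a limma adjusted p = 0.385. Ubash3a, a brake on receptor signalling, ran the other way, from 6.96 to 7.12 on Control and from 7.01 to 7.30 on Sca1-HGAL arrays (difference 0.16, SE 0.07, limma adjusted p = 0.527).

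Among costimulators and surface proteins, Il7r, the interleukin 7 receptor chain that keeps resting T cells alive, read 7.61, 8.39, 8.36 and 7.93 on Control and 8.92, 8.57, 6.50 and 8.44 on Sca1-HGAL arrays. Sca1-HGAL 3 was below every Control array and the other 3 Sca1-HGAL arrays above them all, so that the means differed by 0.04 (SE 0.45, limma adjusted p = 0.993). Cd28, the main costimulator, read 6.86, 7.21, 7.17 and 6.94 on Control and 7.48, 6.91, 6.28 and 7.21 on Sca1-HGAL arrays. Thy1, a surface protein of mouse T cells, read 7.38, 7.61, 7.60 and 7.62 on Control and 8.01, 7.86, 7.16 and 7.74 on Sca1-HGAL arrays. Both were highest on Sca1-HGAL 1 and lowest on Sca1-HGAL 3. Icos, an inducible costimulator, ran from 6.38 to 6.68 on Control and from 6.44 to 6.96 on Sca1-HGAL arrays (difference 0.24, SE 0.11, limma adjusted p = 0.535). Cd2, an adhesion molecule that mouse B cells carry as well, was level at 11.45 to 11.80, and Cd6 ranged from 6.96 to 7.36. Among the T-cell factors, Bcl11b, needed for T-cell commitment, ranged from 7.27 to 7.73, Gata3 from 5.97 to 6.55 and Tox from 6.91 to 7.20, with differences of -0.10, 0.14 and 0.04.

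The 2 regulatory T genes behaved differently from each other. Foxp3, the defining factor, read 7.05, 7.23, 7.14 and 7.23 on Control and 7.20, 7.08, 7.15 and 7.17 on Sca1-HGAL arrays. Its spread of 0.18 was the narrowest of the members and under every spread of the 17 genes of other tissues, and the groups overlapped (difference -0.02, SE 0.06, 95% interval -0.16 to 0.12, limma adjusted p = 0.961). Il2ra, encoding CD25, which activated T cells and some B-lineage cells also carry, read 6.66, 7.04, 7.40 and 6.65 on Control and 7.56, 6.41, 6.62 and 6.47 on Sca1-HGAL arrays. Sca1-HGAL 1 and Control 3 were high and the other Sca1-HGAL arrays lay below every Control array (difference -0.17, SE 0.26, limma adjusted p = 0.878).

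Receptors of NK cells were lowest on Sca1-HGAL 3 in 4 of 5 cases. Klrd1, encoding CD94, read 5.97, 6.61, 7.22 and 6.07 on Control and 6.41, 6.01, 5.21 and 5.81 on Sca1-HGAL arrays. Ncr1, encoding the activating receptor NKp46, read 6.15, 6.73, 7.04 and 6.15 on Control and 6.30, 6.26, 5.60 and 6.07 on Sca1-HGAL arrays. Both were highest on Control 3 and second highest on Control 2, and the groups overlapped. Klrd1 differed by -0.60 (SE 0.30, 95% interval -1.27 to 0.06, limma adjusted p = 0.562) and Ncr1 by -0.46 (SE 0.22, 95% interval -0.94 to 0.02, limma adjusted p = 0.543). Klrk1, encoding the activating receptor NKG2D, read 5.49, 5.89, 5.86 and 5.56 on Control and 5.56, 5.56, 5.20 and 5.37 on Sca1-HGAL arrays. Its difference of -0.28 (SE 0.12) had an unadjusted p of 0.039 and a limma adjusted p = 0.502. Klrb1c, encoding NK1.1, ranged from 5.32 on Control 1 to 5.95 on Control 2. Il2rb, the interleukin 2 and 15 receptor chain of NK and memory T cells, read 7.03, 7.60, 8.07 and 7.37 on Control and 8.94, 9.13, 6.92 and 8.23 on Sca1-HGAL arrays. Its 3 high Sca1-HGAL arrays were above every Control array and Sca1-HGAL 3 below them all (difference 0.79, SE 0.43, 95% interval -0.16 to 1.73, limma adjusted p = 0.602).

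Of the granule genes, Gzma had the smallest p of all members. It encodes granzyme A, a protease of NK and cytotoxic T cells, and read 6.40, 7.49, 7.21 and 6.74 on Control and 6.41, 6.13, 6.13 and 6.09 on Sca1-HGAL arrays. The groups overlapped at Sca1-HGAL 1 and Control 1 alone, and the other 3 Sca1-HGAL arrays were nearly level. The difference was -0.77 (SE 0.20, 95% interval -1.22 to -0.31), with an unadjusted p of 0.0036 and a limma adjusted p = 0.272. Gzmb, granzyme B, read 5.60, 5.97, 5.63 and 6.03 on Control and 5.63, 5.99, 5.85 and 5.87 on Sca1-HGAL arrays, with no array set apart. Prf1, the pore-forming perforin, was between 7.84 and 8.55 and highest on Sca1-HGAL 2. Nkg7, a granule membrane protein, read 8.01, 8.50, 8.68 and 7.98 on Control and 9.27, 8.72, 6.74 and 8.12 on Sca1-HGAL arrays. Ctsw, the protease cathepsin W, read 6.44, 7.10, 7.21 and 6.84 on Control and 7.59, 7.29, 6.57 and 7.14 on Sca1-HGAL arrays. Nkg7 and Ctsw were thus highest on Sca1-HGAL 1, as Cd3d, Cd3e and Cd3g were, and Gzma was not. Eomes, a factor of NK and memory CD8 T cells, ranged from 5.73 on Sca1-HGAL 3 to 6.69 on Control 3. Ccl5, a chemokine of memory T and NK cells, read 9.04, 9.99, 9.78 and 9.40 on Control and 10.57, 10.13, 8.25 and 9.65 on Sca1-HGAL arrays, again with Sca1-HGAL 1 highest and Sca1-HGAL 3 lowest.

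**Figure D3:**
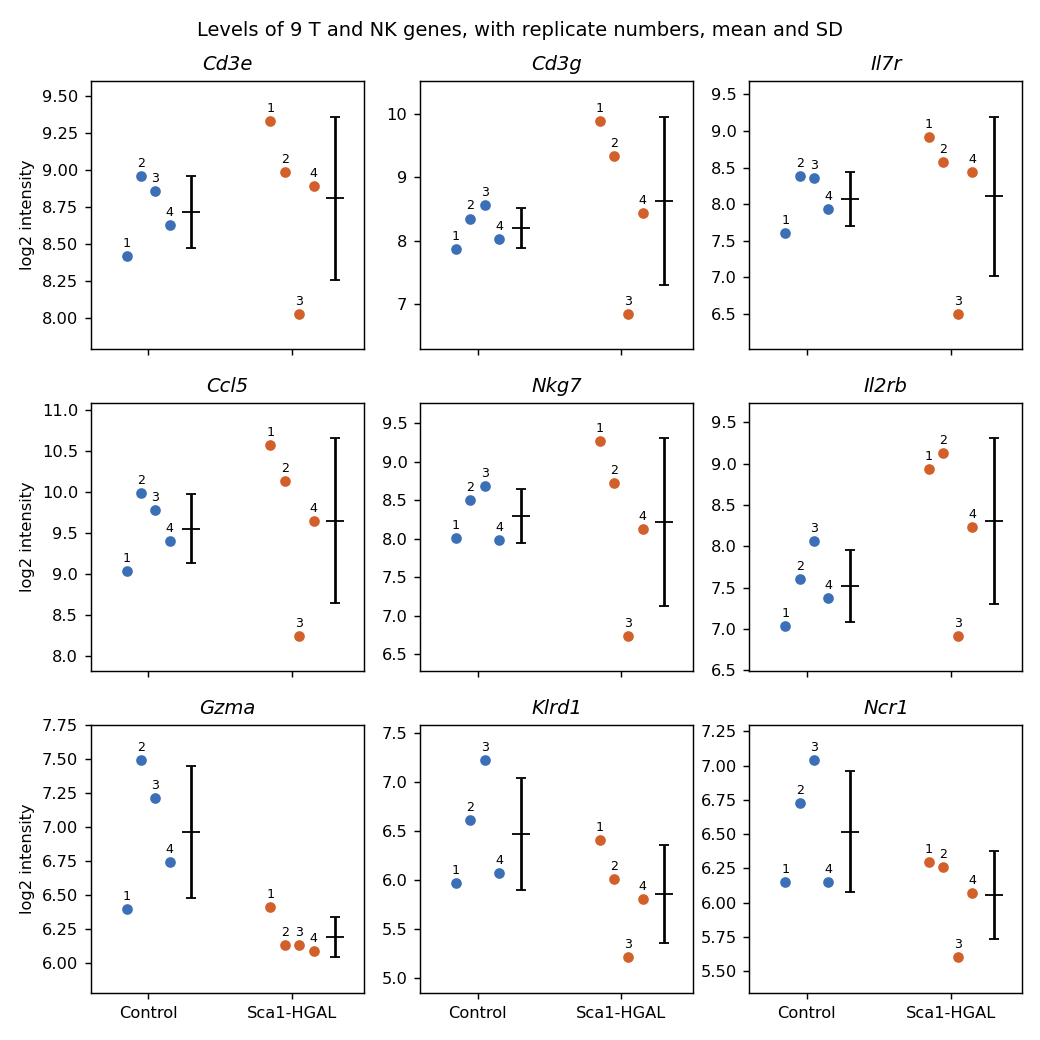
Log2 intensity (y axis) of 9 T and NK genes on the 4 Control and 4 Sca1-HGAL arrays (x axis), numbered by replicate, with the mean and SD beside each group. Sca1-HGAL 3 is the lowest point for Cd3e, Cd3g, Il7r, Ccl5, Nkg7, Il2rb, Klrd1 and Ncr1, and in Gzma the Sca1-HGAL arrays lie at 6.09 to 6.41 under most Control arrays.

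Leaving out Sca1-HGAL 3 moved the number of members at an unadjusted p under 0.05 the most. Without it, 10 of the 36 had an unadjusted p under 0.05, 8 higher and 2 lower, against 11.0% of all probe sets in that fit, 6.09% higher and 4.87% lower. The 8 were Il2rb at 1.25 (SE 0.26, limma adjusted p = 0.103, the smallest of any member in any setting), Cd3g at 1.02 (SE 0.31), Il7r at 0.57 (SE 0.20), Ctsw at 0.44 (SE 0.18), Cd3e at 0.35 (SE 0.15), Icos at 0.33, Thy1 at 0.32 and Ubash3a at 0.22. Gzma, at -0.75, and Skap1, at -0.23, were the 2 lower ones. No member passed the adjusted threshold there either, where 40 of 21640 probe sets did. Without Sca1-HGAL 1, 8 members were lower and none higher at that level, among them Klrd1 at -0.79, Il2ra at -0.44 and Cd4 at -0.34, against 11.9% of all probe sets and 4.86% lower, and Cd3e turned to -0.08. Without Control 1, 7 members were lower, against 3.84% of all probe sets, with Gzma at -0.95. Without Control 2 and 4, the arrays with high Xist, Gzma alone remained, at -0.61 (limma adjusted p = 0.569), against 8.07% of all probe sets.

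Averaged over genes, the T members had mean levels of 7.38, 7.60, 7.64 and 7.44 on Control and 7.85, 7.65, 7.10 and 7.54 on Sca1-HGAL arrays. The NK members had 6.65, 7.18, 7.26 and 6.85 on Control and 7.26, 7.15, 6.29 and 6.85 on Sca1-HGAL arrays. The group means were 7.51 ± 0.13 and 7.53 ± 0.31 (SD, n = 4) for T, and 6.98 ± 0.29 and 6.89 ± 0.43 (SD, n = 4) for NK genes, in Control and Sca1-HGAL in that order. Both differences, 0.02 and -0.10, were smaller than these SDs. Each turned sign with the arrays included: without Sca1-HGAL 3 the T difference was 0.16 and the NK difference 0.10, and without Sca1-HGAL 1 they were -0.08 and -0.22. Of 20 further T genes listed with the members, 18 were measured, and they followed the same arrays: their mean level was 7.86 to 8.14 on Control and 7.55 to 8.18 on Sca1-HGAL arrays, with 14 of the 18 lowest on Sca1-HGAL 3. Among them Sit1, an adaptor of T and B cells, had an unadjusted p under 0.05 at 0.29, and Lef1 and Satb1, factors also active in B-lineage cells, at -0.56 and -0.32. They were 16.7% of the 18, against 9.59% of all probe sets. Of 12 further regulatory T genes, Tnfrsf9 and Itgae had such a p, both at 0.22 (16.7%, against 9.59% of all probe sets). Ctla4, an inhibitory receptor, read 6.65 to 6.76 on Control and 9.83, 6.98, 7.21 and 7.38 on Sca1-HGAL arrays, a difference of 1.14 (SE 0.52, limma adjusted p = 0.525). Its groups did not overlap, and Sca1-HGAL 1 was far above the other Sca1-HGAL arrays, while Foxp3 on the same array was 7.20. Of 32 further NK genes, 27 were measured, and 5 had such a p (18.5%, against 9.59% of all probe sets), 2 higher and 3 lower. Tbx21, the T-box factor of NK, T and age-associated B cells, was at 7.69 to 7.82 on Control and 8.35 to 9.28 on Sca1-HGAL arrays (0.99, SE 0.16, limma adjusted p = 0.111). Xcl1, a chemokine of NK and CD8 T cells, had -0.21, and the adaptor gene Tyrobp, shared with myeloid cells, -0.42. S1pr5, a migration receptor of NK cells, had 0.30, and Klra3, of a receptor family whose near-identical copies may share signal, -0.30. No further T, regulatory T or NK gene passed the adjusted threshold.

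Lists of other cells moved with some of the same arrays, and their part in the T and NK values was not tested. The 15 neutrophil genes had mean levels of 6.10 to 6.63 on Control and 6.23 to 7.29 on Sca1-HGAL arrays, with Sca1-HGAL 1 highest for 13 of them. The B-1 and age-associated list, 10 genes with Tbx21 among them, had 7.79 to 7.97 and 8.02 to 9.13, again lowest among Sca1-HGAL arrays on replicate 3 and highest on replicate 1. Of 17 macrophage and monocyte genes, 15 were measured, at 7.04 to 7.39 and 7.05 to 7.47. Of 6 plasmacytoid dendritic cell genes, 5 were measured, at 7.74 to 8.30 and 7.50 to 7.69. Of 8 erythroid genes, 4 were measured, at 8.04 to 9.14 and 8.41 to 8.66, and of 10 cell cycle genes, 9 were, at 6.94 to 7.72 and 6.86 to 7.91. The array values have no true zero, so no marker can be called absent. The B-cell genes moved by at most 0.42 between any arrays, and Sca1-HGAL 3, at 12.85 in the mean, was not low for them.

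**Figure D4:**
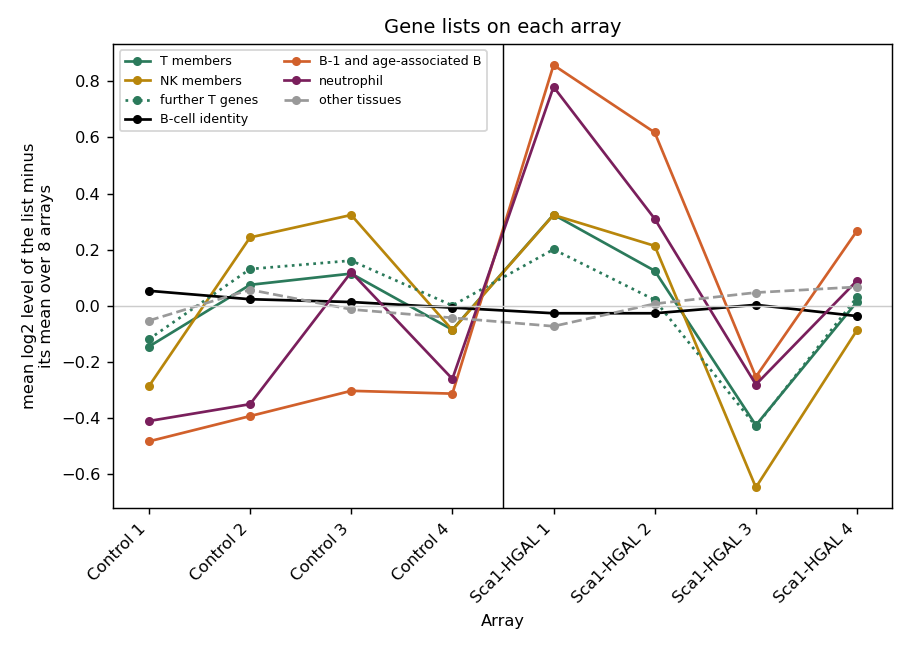
Mean log2 level of 7 gene lists on each array minus the list's mean over the 8 arrays (y axis), with the arrays along the x axis; lines only join the points of a list. T and NK members and further T genes dip together on Sca1-HGAL 3, where B-cell identity and other-tissue genes stay level, and the neutrophil and B-1 lists are highest on Sca1-HGAL 1.

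Some T genes and some NK genes followed the arrays in the order of Cd3e, and others did not. Each member was correlated with Cd3e, Foxp3 and Gzma over the 8 arrays, with exact two-sided permutation tests and Benjamini-Hochberg adjustment over all 105 relations. With Cd3e, 8 of 35 members passed an adjusted p of 0.05 by Pearson's r and 3 by Spearman's rho. Of the 8, 5 were among 21 T genes and 3 among 12 NK genes, and over all genes 41 of 19936 (0.206%) had an r at least as high as the lowest of them. They were Ccl5 (r = 0.99, rho = 0.98, exact permutation adjusted p = 0.0039), Il7r (r = 0.98), Thy1, Cd3g and Nkg7 (each r = 0.95), Cd3d (r = 0.93), and Cd28 and Ctsw (each r = 0.92). The 3 of these passing by rho were Ccl5, Il7r and Cd3d. Of the 8, Ccl5, Nkg7 and Ctsw belong to the NK list. Without the 2 arrays farthest from the median of Cd3e, Control 1 and Sca1-HGAL 3, r stayed between 0.75 for Cd28 and 0.98 for Il7r. It was 0.82 to 0.99 without Sca1-HGAL 3 alone, 0.89 to 0.99 without Sca1-HGAL 1, and 0.62 (Cd28) to 0.99 without both. With each group's mean removed, r was 0.94 to 0.99, and over the 6 arrays with low Xist 0.92 to 0.99. Il2rb (r = 0.85), Cd8b1 (r = 0.85) and Tox (r = 0.83) did not pass (each exact permutation adjusted p = 0.062). The median r with Cd3e was 0.61 over the NK genes and 0.76 over the other T genes. For those T genes it was 0.65 without Sca1-HGAL 3, 0.69 without Sca1-HGAL 1 and 0.59 without both. Cd2 (r = -0.12), Gzmb (r = -0.04), Foxp3 (r = 0.29), Prf1 (r = 0.37) and Zap70 (r = 0.43) had low values.

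Gzma did not follow Cd3e closely. Its r with Cd3e was 0.24 (exact permutation adjusted p = 0.84). With Gzma, 1 of 35 members passed, Klrk1 (r = 0.89, exact permutation adjusted p = 0.043), and 0 did by rho. Without Control 2 and 3, the 2 arrays farthest from its median, r was 0.56, so much of the relation rests on those arrays. Ncr1 (r = 0.81), Klrd1 and Cd4 (each r = 0.78) followed but did not pass. With each group's mean removed, r with Gzma was 0.80 for Klrk1, 0.54 for Cd3e and 0.40 for Il2rb, which had -0.18 over all arrays. It was 0.72 for Ncr1, 0.68 for Klrd1 and 0.65 for Cd4. Removed in the same way, r with Cd3e was 0.85 for Klrk1, 0.79 for Ncr1, 0.83 for Klrd1 and 0.82 for Cd4. Without Control 1 and Sca1-HGAL 3, but with group means kept, r with Cd3e was -0.04 for Klrk1 and 0.0 for Ncr1. It was 0.1 for Klrd1 and -0.03 for Cd4. Whether these genes followed Cd3e thus depended on the arrays and on how r was taken. With Foxp3 none passed, and 1 had an unadjusted permutation p under 0.05, Klrb1c (r = 0.77, exact permutation adjusted p = 0.14). No difference between correlations was tested.

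**Figure D5:**
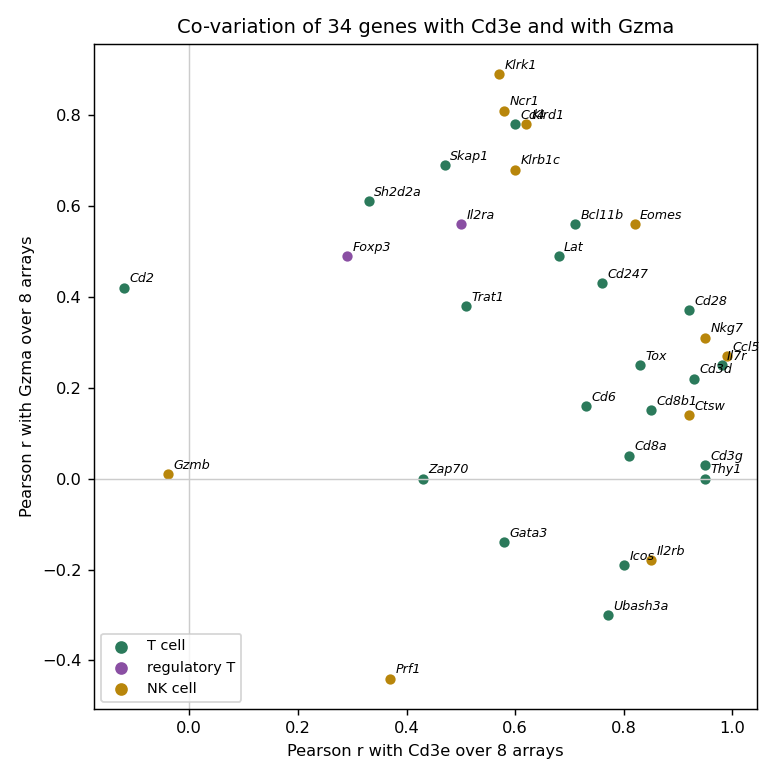
Pearson r of each other member with Cd3e (x axis) and with Gzma (y axis) over the 8 arrays, coloured by T, regulatory T and NK genes. Ccl5, Nkg7 and Ctsw lie at the right among T genes such as Cd3g, Il7r and Thy1, whereas Klrk1, Ncr1 and Klrd1 lie at the top beside Cd4. Group means were not removed here.

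Among 15723 genes with a mean level of at least 6, those most like Cd3e were found by r over the 8 arrays with each group's mean removed, as a description. Of the 8 members above, Ccl5 ranked 1, Il7r 3, Thy1 17, Nkg7 19, Cd3g 38, Cd28 44, Ctsw 53 and Cd3d 68, while Cd4 ranked 504, Zap70 3164 and Cd2 7994. Outside the members, Prkch, a protein kinase C, ranked 2 (r = 0.99), with 5.69 on Sca1-HGAL 3 and 7.26 on Sca1-HGAL 1. The next, Exo1, Ctsd, Spring1, 9130401M01Rik, Hcfc1, Cln3, Fbxo25, Zdhhc15 and Nat8f1, had r of 0.97 or 0.98 over spreads of 0.16 to 0.57, so a high r here did not require a large change. The genes most like Gzma, led by Isg20l2 and Ccn2 (each r = 0.97), had spreads of 0.16 to 0.55, against 1.39 for Gzma, and none of the 10 was a member.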

How the data were processed

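RNA from 8 samples was read on 8 Affymetrix arrays (Mouse Gene 1.0 ST). The authors' deposited values are linear intensities, normalised with RMA per the submitters' processing notes; the version is not given in the sources used for this work. They ran from 4.94 to 24302 and were turned into log2 with no pseudocount. Of 34760 probe sets, 21640 have 1 gene symbol in the platform annotation and were tested; each gene was represented by its probe set of highest mean. The group comparison used lmFit and eBayes of limma 3.58.1 under R 4.3.3, two-sided with Benjamini-Hochberg adjustment, and was checked on simulated data. Correlations used exact permutation in Python 3.11.15. With 4 arrays a group, their number limits the precision. Genes named with full values were the 4 T and 4 NK members with the smallest p, the regulatory T pair, Cd3e, Cd4, Cd8a, Zap70, Gzma and Ncr1, and up to 3 genes per further list; the other members with Ctla4, S1pr5 and Klra3 were added after their values were seen. The members and lists were chosen with earlier results of these data known. Alternative settings were median centring, quantile normalisation once more, a filter at a mean log2 level of 6, array weights, a replicate block, a trended robust prior, the mean of probe sets, leaving out each array and leaving out Control 2 and 4. Alternatives for the spreads and correlations were chosen after seeing the data.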

Additional observations from a re-analysis of the deposited data

Results flagged for a closer look

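In 124 groups of 4 values checked, over the members, the list means and the other genes named with values, 5 had 1 array set far from the other 3, where chance gives about 1 in 20 groups, or 6.2 here. Thy1 was low on Control 1, at 7.38, where the other Control arrays were at 7.60 to 7.62. Gata3 was low on Control 4, at 5.97, against 6.34 to 6.37. Gzma was high on Sca1-HGAL 1, at 6.41, against 6.09 to 6.13 on the other Sca1-HGAL arrays. Its groups overlapped only between this value and Control 1, at 6.40. Outside the members, Itgae was low on Control 1, at 5.82, against 6.12 to 6.17. Ctla4 was high on Sca1-HGAL 1, at 9.83, against 6.98 to 7.38 on the other Sca1-HGAL arrays.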

How the results depend on the processing

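No member passed the adjusted threshold in limma in any of 16 alternatives, with a smallest adjusted p between 0.103 and 0.569. Few of all probe sets passed either, 40 of 21640 without Sca1-HGAL 3 and from 1 to 12 in the other alternatives. The absence of members therefore says little about them. The count at an unadjusted p under 0.05, 3 in the main setting, was 6 with array weights, 1 without the 2 arrays with high Xist, and from 2 to 10 when each array was left out, with 7 without Control 1, 5 without Control 4, 8 without Sca1-HGAL 1 and 10 without Sca1-HGAL 3. The share of all probe sets at that level was 12.3% with array weights and 8.07% without the high-Xist arrays. When each array was left out, that share ran from 7.24% to 11.9%. It was 8.35% without Control 1, 9.04% without Control 4, 11.9% without Sca1-HGAL 1 and 11.0% without Sca1-HGAL 3. With the replicate number as a block the count was 2, against 8.44% of all probe sets. The replicate numbers pair nothing in the labels, and deviations of same-numbered arrays correlated at -0.16 to 0.0529. Small differences changed sign. Cd3e had -0.08 to 0.35 when each array was left out, with -0.01 without Control 1. Zap70 had 0.00 with array weights and -0.06 to 0.02 when each array was left out. Foxp3 had -0.06 to 0.01 when each was left out and 0.05 without the high-Xist arrays. The cause was not tested. When each array was left out, the median difference ran from -0.06 to 0.13 for T and from -0.24 to 0.01 for NK genes, and the difference of the mean level from -0.08 to 0.16 and from -0.22 to 0.10. Gzma stayed negative throughout, from -0.95 to -0.59. The number of members correlated with Cd3e was 8 to 11 in 3 alternatives. The filter at a level of 6 left 32 members, without Klrk1.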
